A study of Arabidopsis thaliana with 12 samples.

Results

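Of the DMRs (differentially methylated regions) that lose DNA methylation in *nrpe1*, 326 were listed with chromosomal interactions in *ago4* and not in *nrpe1*. They were chosen by comparing 6 deposited lists, 1 for each Hi-C library of the 2 mutants: a DMR, matched by exact chromosome, start and end, had to be in at least 1 of 3 *ago4* lists and in none of 3 *nrpe1* lists. They make up 326 of the 541 DMRs in the lists, and the others comprise 107 shared by both mutants and 108 listed in *nrpe1* only. Membership is thus itself a readout, so the counts over these lists describe the members and test nothing.

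Hi-C counts ligated pairs of restriction fragments and so reports which parts of the genome lie close together. It was performed in *Arabidopsis thaliana* seedlings of 3 genotypes, each with 3 biological replicates grown for 2 to 3 weeks in long days and cross-linked with formaldehyde. The genotypes were wild type Col-0, *nrpe1* (allele nrpd1b-11) and *ago4* (allele ago4-1 introgressed into Col-0), and both mutants are in the Col-0 background. For *ago4* that background was reached by introgression, and how much donor sequence remains is not stated. The lists of the 2 mutants need not differ by the mutations alone. Each mutation was represented by 1 allele, and the material was whole above-ground tissue, so cell types were not separated. Lists of the Col-0 libraries were not analysed here, so whether a member also had contacts in wild type cannot be said. The authors' RNA-seq comparison of *ago4* with Col-0 seedlings was used only for the level of neighbouring genes. That level is 1 mean per gene that does not separate the genotypes, so it is not the level in *ago4* alone.

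RNA-directed DNA methylation (RdDM) is the plant pathway by which small RNAs direct methylation of cytosines, including those in the CHH context, where H is any base but G. NRPE1 is the largest subunit of RNA polymerase V, whose non-coding transcripts mark the target loci. AGO4 is an argonaute protein that carries the small RNAs and is recruited to those transcripts, and both act upstream of the methyltransferase DRM2. The members are therefore regions defined by loss of methylation in *nrpe1*, for which the contacts were listed in the mutant of the argonaute instead.

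The sequences of 4 members in all 3 *ago4* lists are given as examples, picked by rule and not typical of the members. They are the first on each chromosome, by position, of at most 300 bp that overlap no annotated gene and hold a recognition site of *Dpn*II, the enzyme that cut the chromatin. No member on chromosome 4 met these criteria. The sequences are from the plus strand of the RefSeq assembly TAIR10.1, written 5′ to 3′, and capitals mark the *Dpn*II site GATC, which reads the same on both strands.
chr1:9708358-9708533: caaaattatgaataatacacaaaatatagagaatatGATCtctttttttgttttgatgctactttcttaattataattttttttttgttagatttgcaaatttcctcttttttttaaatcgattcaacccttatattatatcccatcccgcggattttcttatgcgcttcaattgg
chr2:2320666-2320958: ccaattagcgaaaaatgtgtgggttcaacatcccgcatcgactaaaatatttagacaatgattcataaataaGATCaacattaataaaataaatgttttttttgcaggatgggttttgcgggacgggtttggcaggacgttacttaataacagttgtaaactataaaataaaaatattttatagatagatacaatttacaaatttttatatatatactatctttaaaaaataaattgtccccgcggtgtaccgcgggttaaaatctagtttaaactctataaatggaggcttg
chr3:9257414-9257690: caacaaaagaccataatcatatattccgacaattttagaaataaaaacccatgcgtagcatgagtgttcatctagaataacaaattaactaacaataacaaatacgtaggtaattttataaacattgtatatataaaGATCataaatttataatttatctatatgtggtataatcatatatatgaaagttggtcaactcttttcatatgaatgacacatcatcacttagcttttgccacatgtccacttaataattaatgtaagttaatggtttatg
chr5:16030553-16030844: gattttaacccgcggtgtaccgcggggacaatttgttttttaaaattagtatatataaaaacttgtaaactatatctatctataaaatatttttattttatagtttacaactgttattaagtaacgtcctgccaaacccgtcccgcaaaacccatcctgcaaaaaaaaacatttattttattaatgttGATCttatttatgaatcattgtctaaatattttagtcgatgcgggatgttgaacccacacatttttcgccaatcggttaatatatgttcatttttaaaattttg

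All 4 begin and end on a cytosine of 1 strand or the other and are rich in A and T, with GC contents of 26.1%, 30.4%, 26.0% and 29.5% in the order shown. The 176 bp of the chromosome 1 member hold 36 CHH cytosines, 8 in the CG and 2 in the CHG context. The members on chromosomes 2 and 5 are related: 132 of their 31-mers (stretches of 31 bases) are identical on opposite strands, which is 50.4% of those of the shorter one. Each of these 2 holds a 31-mer found 67 times in the nuclear genome, and 89.4% and 96.6% of their bases are soft-masked as repeats in the reference. For the members on chromosomes 1 and 3 it is 69.3% and 67.1%, while the median member in all 3 lists has 32.5%. All 4 also lie below the median GC content of the members in all 3 lists, 31.4%. The chromosome 1 member is the least repeated of the 4, with 13.7% of its 31-mers in more than 1 copy and none in more than 2. Their nearest protein-coding genes are AT1G27880 (328 bp away, a mean log2 CPM of 1.09), MOD1, which encodes an enoyl reductase of fatty acid synthesis (1257 bp, 5.60), AFH1, a formin that nucleates actin (2331 bp, 3.46), and AT5G40040 (218 bp), which the expression table does not list.

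The first question was how often the same region recurred between replicates. The *ago4* lists of replicates 1, 2 and 3 held 215, 265 and 207 DMRs, and the *nrpe1* lists 50, 176 and 65. Members made up 179 (83.3%), 186 (70.2%) and 161 (77.8%) of the *ago4* lists, 77.1% ± 6.56 (SD, n = 3). Of the 326 members, 58 (17.8%) were in all 3 lists, 84 in exactly 2 and 184 in 1. Replicate 1 stood apart: 92 of its members were in no other list, which is 51.4% of its members, against 56 (30.1%) for replicate 2 and 36 (22.4%) for replicate 3. Replicates 2 and 3 shared 55 members that replicate 1 lacked, while replicates 1 and 2 alone shared 17 and replicates 1 and 3 alone shared 12. According to the study's supplementary table, the first-numbered library of each genotype had far fewer called interactions than the others. The lists themselves give no reads, so the depth is unknown, and absence from a list does not show that a contact was absent. The part that depth played in membership was not tested.

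**Figure D1:**
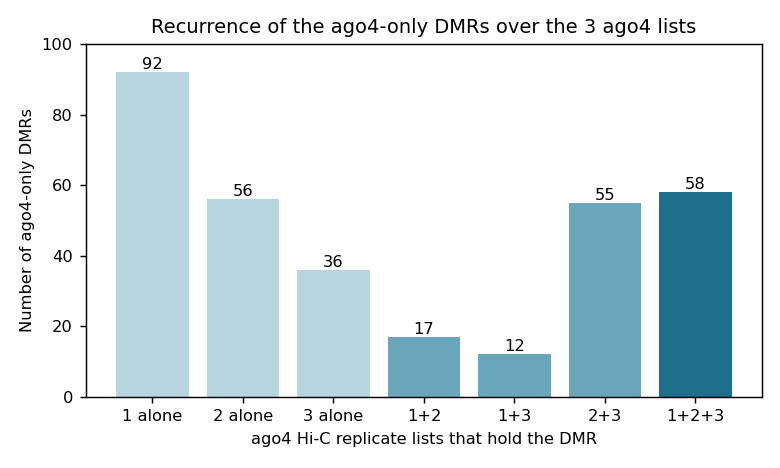
Number of ago4-only DMRs (y axis, count) in each combination of the 3 ago4 replicate lists (x axis); darker bars stand for more lists. The bars show 92 DMRs in replicate 1 alone, 55 in replicates 2 and 3 together and 58 in all 3.

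The requirement of absence from *nrpe1* also has an edge. Among the 107 shared DMRs, 57 were in just 1 *nrpe1* list and so missed membership by a single list, and for 40 of these it was the list of *nrpe1* replicate 2, the longest of that mutant. Only 12 shared DMRs were in all 3 *nrpe1* lists. On the other side, the 184 members in 1 *ago4* list qualified by a single list.

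Whether the *ago4* bias holds in libraries that did not choose the regions was asked by leaving out each replicate number in turn. Candidates were the DMRs in an *ago4* list and in no *nrpe1* list of the other 2 numbers, and they were then looked for in both lists of the left-out number. With replicate 1 left out, 89 of 239 candidates (37.2%, 95% Wilson interval 31.4 to 43.5) were in its *ago4* list and 5 (2.09%, 0.897 to 4.80) in its *nrpe1* list, where all DMRs of the other 4 lists gave 27.2% and 6.34%. With replicate 2 left out, 137 of 288 (47.6%, 41.9 to 53.3) were in *ago4* and 18 (6.25%, 3.99 to 9.66) in *nrpe1*, with 48.2% and 20.4% of all DMRs. With replicate 3 left out, 126 of 295 (42.7%, 37.2 to 48.4) were in *ago4* and 5 (1.69%, 0.726 to 3.91) in *nrpe1*, with 34.1% and 12.2% of all DMRs. The ranges of the 2 mutants did not overlap, and the mean difference was 39.2 percentage points ± 3.48 (SD, n = 3), higher in *ago4* in 3 of 3 replicates. A two-sided exact sign-flip test gave p = 0.25, the smallest that 3 pairs allow, so the design cannot pass 0.05. The intervals cover counting error over DMRs only. Each list also helped to choose candidates when another number was left out, so the 3 differences are not independent.

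The *ago4* lists are longer than the *nrpe1* lists, and a gap between the mutants was present for any listed DMR. Read against the shares of all DMRs, the candidates were above the background in *ago4* for replicates 1 and 3 and at the background for replicate 2, and below it in *nrpe1* for all 3. Set against the difference between mutants for all DMRs, 20.9, 27.8 and 22.0 points, the candidates' difference was larger by 14.3, 13.5 and 19.1 points (15.6 ± 3.02, SD, n = 3; exact sign-flip p = 0.25), a comparison added after the data were seen. That background includes the candidates, and its other DMRs were each in an *nrpe1* list of the other 2 numbers. A larger difference for the candidates is thus in part set by how they were chosen, and no conclusion is drawn from its size. Candidates in both other *ago4* lists recurred more often, with 59 of 115 (51.3%), 59 of 73 (80.8%) and 59 of 76 (77.6%) in the left-out *ago4* list and 2, 3 and 1 in *nrpe1*. Each 59 includes the 58 members in all 3 *ago4* lists, so these counts repeat nearly the same DMRs. Without replicate 1 in any step the difference was 59.1 points, against 36.9 without replicate 2 and 36.1 without replicate 3.

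**Figure D2:**
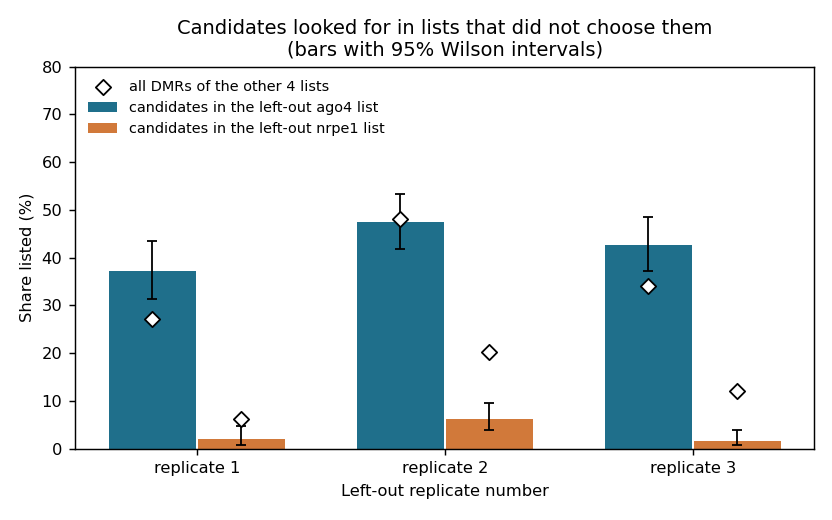
Share of candidate DMRs (y axis, %) found in the left-out ago4 and nrpe1 lists of each replicate number (x axis), with 95% Wilson intervals. Open diamonds give the share of all DMRs of the other 4 lists, candidates included. Candidates reach 37.2 to 47.6% in ago4 and 1.69 to 6.25% in nrpe1, and the ago4 bar of replicate 2 lies at its diamond of 48.2%.

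Members were unevenly spread over the 5 chromosomes. Chromosome 2 carried 118 of them (36.2%), or 5.99 per Mb, followed by chromosome 1 with 79 (2.60 per Mb). Chromosome 5 carried 55 (2.04 per Mb), chromosome 3 carried 42 (1.79 per Mb) and chromosome 4 carried 32 (1.72 per Mb). The share on chromosome 2 was alike in the members of each *ago4* list, at 36.3%, 34.4% and 34.8%. Among the shared DMRs of the same lists it was 38.9%, 25.3% and 26.1%, so the members' share was higher in 2 of 3 lists and the mean difference of 5.07 points was smaller than its SD of 6.63. Over each whole class, chromosome 2 carried 29.0% of shared and 19.4% of *nrpe1*-only DMRs. Whether members there lie in sequence introgressed with *ago4* was not tested. Of the members in all 3 lists, 19 were on chromosome 1, 17 on chromosome 2, 9 on chromosome 3, 5 on chromosome 4 and 8 on chromosome 5.

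Within chromosomes, members were unevenly spread as well. Of 121 windows of 1 Mb, 83 held a member, and the 10 windows with most held 144 members (44.2%). These windows were picked for their members, so the 15.0% of shared and 22.2% of *nrpe1*-only DMRs in them serve as description only. The window from 6 to 7 Mb on chromosome 2 held 22 members, with 10, 14 and 10 in the 3 lists, and its midpoint lay 2.0 Mb from that of the gene-poorest window of the chromosome. The window from 1 to 2 Mb on the same chromosome held 19 members, beside 6 shared and 6 *nrpe1*-only DMRs. Windows at 9 to 10 Mb on chromosome 1 and at 10 to 11 Mb on chromosome 3 held 16 each. The chromosome 1 window had 12, 10 and 12 members in the 3 lists, 8 of them in all 3, with no shared DMR. The chromosome 3 window held neither a shared nor an *nrpe1*-only DMR. The 4 windows thus drew on all 3 libraries, not on replicate 1 alone.

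**Figure D3:**
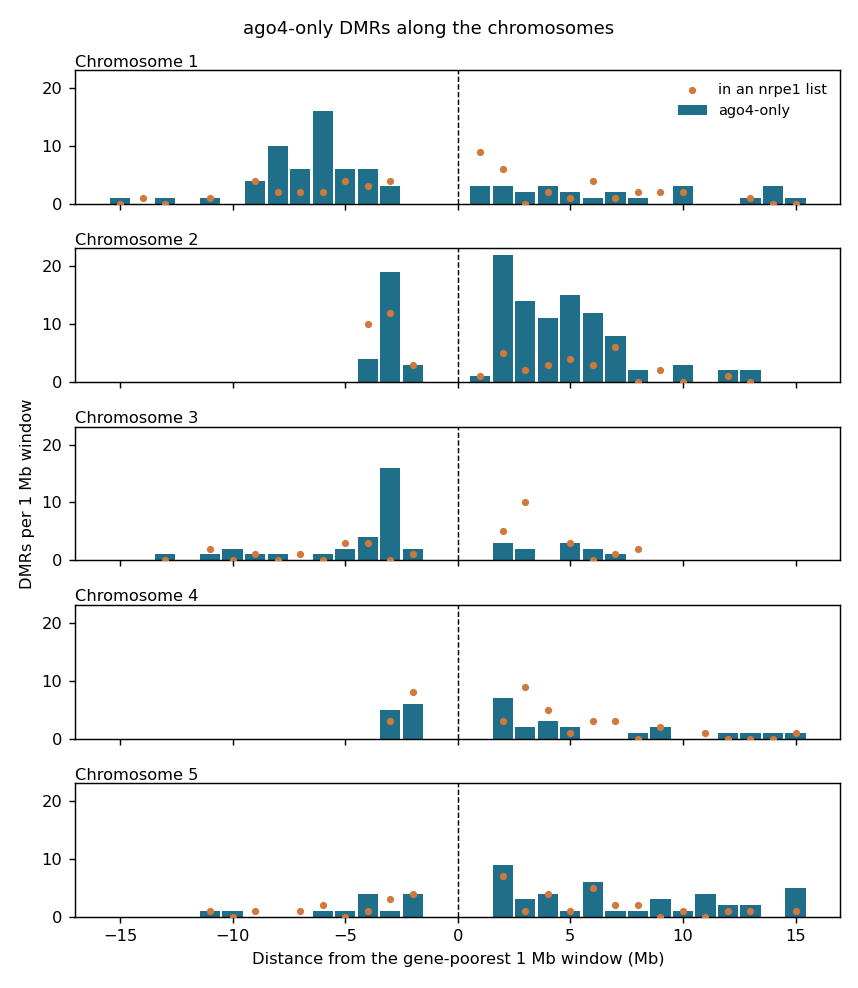
Number of ago4-only DMRs (bars) and of DMRs in an nrpe1 list (points) per 1 Mb window (y axis, count) against distance from the gene-poorest window of each chromosome (x axis, Mb), drawn for windows with a listed DMR. The highest bar holds 22 DMRs on chromosome 2, and the window with 16 on chromosome 3 has no DMR of an nrpe1 list.

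The gene-poorest window of each chromosome was taken as the centromere. Of the members, 63 (19.3%, Wilson interval 15.4 to 24.0) lay within 2.5 Mb of it. By recurrence it was 35 of 184 (19.0%) in 1 list, 23 of 84 (27.4%) in 2 and 5 of 58 (8.62%, 3.74 to 18.6) in all 3, with no steady trend. Within the *ago4* lists the share was 17.3%, 21.0% and 16.1% for members and 19.4%, 19.0% and 17.4% for shared DMRs, and the difference changed sign between lists. The result depended on the distance chosen. At 5 Mb the mean difference was -16.1 points, lower for members in every list (exact sign-flip p = 0.25), and at 1 Mb it was 0.0. Of the 326 members, 101 had another member within 10 kb, forming 46 groups of at most 3, with no like count for the other classes. One group of 3 on chromosome 1, between 10144587 and 10156842, consisted of members that were each in all 3 lists.

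The lengths of the members ranged from 84 to 3757 bp, with a median of 397.5 bp and quartiles of 242 and 736 bp. Members over 1 kb numbered 41 (12.6%) and those of at most 250 bp, the width of the bins in which interactions were counted, 87 (26.7%). The median was 382 bp for members in 1 list, 397.5 bp in 2 and 419 bp in 3. Within each *ago4* list, the median was 379, 397.5 and 433 bp for members and 398.5, 462 and 398.5 bp for shared DMRs, a mean difference of -16.5 bp ± 49.6 (SD, n = 3) with no common direction.

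Base composition of members and shared DMRs differed in the same direction in every *ago4* list. The median GC content was 31.8%, 30.7% and 30.3% for members against 36.9%, 32.5% and 32.7% for shared DMRs, a difference of -3.13 points ± 1.78 (SD, n = 3). Sites of *Dpn*II were also sparser, at 3.31, 2.61 and 2.54 per kb of members against 4.12, 3.11 and 3.30 per kb of shared DMRs (difference -0.69 ± 0.17, or -0.122 without replicate 1). Both were lower in 3 of 3 lists, with p = 0.25 in the two-sided exact sign-flip test and 0.50 after Benjamini-Hochberg adjustment over 6 properties. The lists share DMRs, so their differences are not independent. Low GC content did not mark the members among all listed DMRs: over each whole class, the median was 30.9% in members, 32.3% in shared and 31.2% in *nrpe1*-only DMRs. For *Dpn*II sites this depended on the measure. Members and *nrpe1*-only DMRs were alike in mean number of sites (1.635 and 1.565) and mean length (576 and 568 bp). The median density per DMR was 2.10 per kb in members, 2.70 in shared and 2.57 in *nrpe1*-only DMRs. In the nuclear genome as a whole, GC content was 36.0% and GATC density 3.63 per kb. Of the members, 60.7% held a GATC, while 72.1% of 298770 genome tiles of 398 bp, the members' median length, did.

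For the 128 members (39.3%) with no *Dpn*II site inside, the nearest site lay at a median of 147 bp and within 250 bp for 90 (70.3%). Shared DMRs without a site numbered 33 (30.8%), at a median of 117 bp and with 81.8% of them within 250 bp. Among *nrpe1*-only DMRs 33 (30.6%) lacked one, at a median of 105 bp and with 97.0% of them within 250 bp. Restricting the left-out comparison to DMRs with a site inside gave a difference of 38.3 points, against 39.2 for all.

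Repeated sequence was common in the members. A median of 22.9% of a member's 31-mers occurred more than once in the nuclear genome, and 27 members (8.28%) had over 50% of theirs in several copies. The number of members in which every 31-mer was unique was 28 (8.59%, Wilson interval 6.01 to 12.1), while 25 of 107 shared DMRs (23.4%, 16.4 to 32.2) and 28 of 108 *nrpe1*-only DMRs (25.9%, 18.6 to 34.9) had that property. Within the *ago4* lists of replicates 1, 2 and 3 it was 7.82%, 8.60% and 8.07% of members and 11.1%, 25.3% and 17.4% of shared DMRs. The members' 3 values lay below all 3 of the shared DMRs, with a difference of -9.77 points ± 6.72 (SD, n = 3; exact sign-flip p = 0.25). Soft-masked bases made up a median of 32.2%, 37.5% and 39.4% of members against 23.7%, 31.7% and 35.2% of shared DMRs in the same lists, higher in 3 of 3. These properties were added after the data were seen. The study kept read ends with a unique alignment, and the part that alignment of repeated sequence plays in the lists was not tested. With only DMRs that have at most 10% of their 31-mers in several copies, the left-out difference was 36.4 points.

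**Figure D4:**
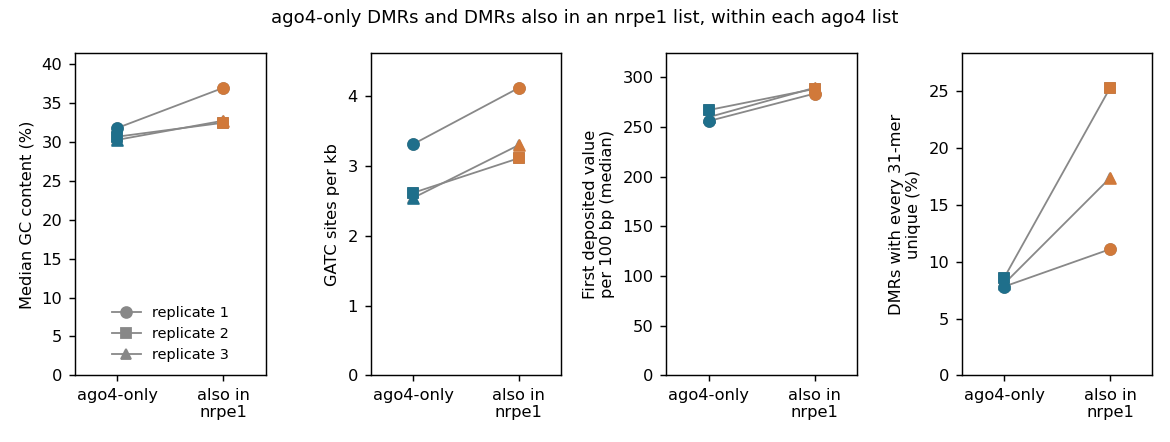
Median GC content (%), GATC sites per kb, the median first deposited value per 100 bp and the share of DMRs with every 31-mer unique (%) for ago4-only DMRs and for DMRs also in an nrpe1 list, within each ago4 list; lines join the groups of a replicate. All 12 lines rise to the right, from 7.82 to 8.60% up to 11.1 to 25.3% in the last panel.

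Some members shared sequence with each other, a count for which there is no like value in the other classes. Of the 326, 157 (48.2%) shared at least one 31-mer with another member, in 183 pairs, and 143 of these pairs joined different chromosomes. The largest set linked in this way held 45 members. In 3 pairs at least 50% of the shorter member's 31-mers were shared, and the printed members of chromosomes 2 and 5 are one of them. Such members are not independent regions.

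Every listed DMR carries 2 further numbers that the files do not label, the same in each list that holds the DMR, so they describe the DMR and not its contacts in a library. The first ranged from 232 to 7701 over the members with a median of 1083, and followed length (Pearson r of 0.877 across members) and the number of CHH cytosines (0.866), a description across regions that are not replicates. The second had a median of 37.8, a largest value of 1810 and was 0 in 47 members. It was at most 24.9% of the first in any listed DMR, with a median of 3.05% in members. Per 100 bp, the median first value was 256, 267 and 260 for members and 284, 288 and 290 for shared DMRs in the 3 *ago4* lists, a difference of -26.2 ± 4.34 (SD, n = 3), lower in 3 of 3 lists (exact sign-flip p = 0.25, adjusted 0.50). Over each whole class it was 255 in members, 279 in shared and 247 in *nrpe1*-only DMRs, so the *nrpe1*-only DMRs had the lowest median. All 541 DMRs start and end on a CHH cytosine, and members held medians of 22.8 CHH, 4.17 CG and 3.50 CHG cytosines per 100 bp.

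Most members lay between genes. In the TAIR10.1 annotation, 237 (72.7%) overlapped no gene, 59 overlapped an exon without coding sequence, 19 a coding exon and 10 an intron only, while 1 lay in a gene without annotated exon. A protein-coding gene was overlapped by 46 and a pseudogene by 31. The nearest protein-coding gene was a median of 750 bp away, and 178 members were upstream of it, 102 downstream. Within 1 kb upstream of a protein-coding gene lay 111 members (34.0%), against 35.5% of shared and 37.0% of *nrpe1*-only DMRs. The share overlapping any annotated gene was 31.8%, 25.8% and 28.0% for members and 36.1%, 32.9% and 21.7% for shared DMRs in the 3 lists, with no common direction.

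The members in all 3 *ago4* lists are the most repeated observation, and the longest and the first of them on each chromosome illustrate their settings (end positions are those listed, 1 past the last base). On chromosome 1 the first, 6640301 to 6641105, was intergenic, 2838 bp upstream of AT1G19230. The longest there, 17151735 to 17152601 (866 bp), ended 296 bp upstream of THO5, a subunit of the THO complex that couples transcription to mRNA export, with a mean log2 CPM of 2.10. Just over 50% of its 31-mers (50.1%) were in several copies.

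On chromosome 2 the first, 1211021 to 1211345, lay 1889 bp upstream of AT2G03932 and was nearly unique in sequence, with 2.38% of 31-mers in several copies. The longest, 14457146 to 14458604 (1458 bp), overlapped the end of AT2G34230 in an exon without coding sequence. It was the longest of all 58. On chromosome 3 the first, 8492036 to 8492275, lay 1770 bp downstream of IPT7, an isopentenyltransferase of cytokinin synthesis, and the longest, 9976736 to 9978016 (1280 bp), ended 80 bp from AT3G27050, with a mean log2 CPM of 3.83. A 31-mer of that region occurred 581 times in the genome, although only 14.3% of its 31-mers were in several copies.

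On chromosome 4 the first and the longest were neighbours on the short arm. The first, 864466 to 865807 (1341 bp), overlapped the non-coding RNA gene AT4G02795, and the longest, 875208 to 876648 (1440 bp), overlapped the coding exon of AT4G02000. Both lay near control primers of the study's long-range 3C assay, a PCR test of single contacts. The second of them was 3460, 455, 2749 and 9544 bp from 4 of these primers. The first was 5915 bp from one, and another member, 863746 to 864338 in 2 lists, was 7384 bp from it. The ends of the contact that the assay tested had no member nearby, with the nearest at 210098 bp from the anchor primer and at 83092 bp from the distant one. No member was within 10 kb of the primers of the short-range assay, the nearest being 11870663 to 11871014 at 11935 bp.

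On chromosome 5 the first, 1410226 to 1411006, covered the coding exon of AT5G04853, annotated as a gene for a small protein. The longest, 14088398 to 14089714 (1316 bp), lay in the pseudogene AT5G35935 and had the highest GC content of these first and longest regions, 42.3%. None of the genes whose coding exons were overlapped by a member of all 3 lists (4 members) has a symbol in the annotation. Among genes named after their values were seen, PUP1, a purine transporter, and CLE11, of the family of CLAVATA3-like signal peptides, carried a member of all 3 lists in an intron.

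The deposited expression table, with 1 mean log2 CPM per gene over its libraries, gives the level of genes near the members. Of the 295 protein-coding genes nearest to members, 134 (45.4%, Wilson interval 39.8 to 51.1) were listed in it, compared with 16151 of 27444 (58.9%) nuclear protein-coding genes. Genes nearest to shared DMRs were listed in 42 of 100 cases (42.0%) and those nearest to *nrpe1*-only DMRs in 43 of 102 (42.2%), both within the members' interval. The listed genes had a median log2 CPM of 2.64 near members, 3.37 near shared and 3.00 near *nrpe1*-only DMRs, and 2.90 over all nuclear protein-coding genes. Among the 45 protein-coding genes overlapped by a member, 11 (24.4%, 14.2 to 38.7) were listed, beside 7 of 19 (36.8%) for shared and 6 of 17 (35.3%) for *nrpe1*-only DMRs. Of the 121 genes with a member within 1 kb upstream, 67 (55.4%, 46.5 to 63.9) were listed, an interval that holds the 58.9% of all nuclear protein-coding genes. In whole tissue, fewer cells that express a gene and less RNA per cell cannot be told apart, and the table holds no values of single libraries, so no error can be given.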

How the data were processed

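Hi-C libraries of *nrpe1* and *ago4* seedlings (3 replicates each) and the RNA-seq comparison of *ago4* with Col-0 were used. According to the methods, read ends with a unique alignment were mapped to TAIR10 with Bowtie, and interactions were counted between 250 bp windows with more than 3 *Dpn*II sites between them. Regions were first filtered for mappability against a decrosslinked control. For every mutant library, the authors deposited a list of those previously defined *nrpe1* DMRs that had interactions. The methods name a cutoff for high-scoring interactions as the default for overlaps and a lower one for contacts of promoters with DMRs, without saying which applies to these lists. The 2 unlabelled numbers of each line are treated as a score of the DMR, as deposited by the authors. For RNA-seq (TopHat2, edgeR), the authors deposited a mean log2 CPM per gene, not split by genotype. The fold changes and p-values of the same table are the authors' own comparison and were not used, and 3 entries for reads of no gene (60.7% of the summed CPM) were left out.

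Lists were assigned to samples by genotype and replicate number. The lists do not state how positions are counted. All 541 DMRs start on a C or G of TAIR10.1 and have a C or G before the listed end, while 87 have one at the listed end itself, so starts were counted from 1 and length is end minus start. Members and comparisons were chosen with earlier results of these data known. Differences were tested over the 3 replicate numbers or *ago4* lists with two-sided exact sign-flip tests. No read depth can be had from the lists, and Wilson intervals (95%) cover counting error only. The centromere was the 1 Mb window with fewest protein-coding genes. Regions named are the first and longest members of all 3 lists per chromosome, those with a coding exon of a gene with a symbol, the windows with most members (a tie gives 4), members within 10 kb of a 3C primer, and their nearest genes. Alternatives comprised leaving out each replicate, no replicate block, merging DMRs of a 250 bp bin, leaving out pericentromeric DMRs, stricter candidates or members, other distances and other gene overlap rules. After the data were seen, chromosome 2, DMRs without a *Dpn*II site and repeated DMRs were left out, and 4 properties were added (repeated 31-mers, unique DMRs, soft-masking and the chromosome 2 share). Calculations used Python 3.11.15, numpy 2.4.6, pandas 2.3.3, scipy 1.17.1 and matplotlib 3.10.9 and were tested on simulated data.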

Additional observations from a re-analysis of the deposited data

How the results depend on the processing

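The left-out difference between *ago4* and *nrpe1* kept its direction under every alternative run. It was 40.7 points without pericentromeric DMRs, 39.4 with merged bins, 67.5 for candidates in both other lists, and 36.1 to 59.1 with a replicate left out, highest without replicate 1. Without chromosome 2 it was 39.5. All DMRs of the other 4 lists gave a difference in the same direction (20.9, 27.8 and 22.0 points), so the direction alone says little about the members. The alternatives were not run on the difference beyond that background. Same-numbered lists of the 2 mutants showed correlated deviations of 0.159, 0.111 and -0.005, and differently numbered lists -0.168 to 0.058. The values leaned towards pairing for numbers 1 and 2 and not for number 3, so pairing by number is not settled. The differences were taken within numbers because the methods of the study use a paired test. With no replicate block the difference was 39.2 points with p = 0.10 in an exact permutation test, the smallest possible with 3 against 3, and no test passed 0.05 with or without the block. GC content, *Dpn*II density and the first value per 100 bp stayed lower in members throughout, but their size depended on the libraries. With a replicate left out, GC content ranged from -5.68 to -1.88 points, *Dpn*II density from -0.760 to -0.122 per kb and the first value from -39.9 to -22.0, each largest in size without replicate 2 and smallest without replicate 1, and the last was -12.7 without pericentromeric DMRs. The difference in median length changed sign, at 22.8 bp without pericentromeric DMRs and -44.0 to 37.2 bp with a replicate left out. So did the share near centromeres (0.729 points with merged bins, -0.171 to 3.64 with a replicate left out, but -16.1 at a distance of 5 Mb) and the share overlapping genes (0.184 for protein-coding genes only, -7.14 to 2.16 with a replicate left out, -7.33 with 1 kb upstream included). Of the added properties, the chromosome 2 share changed sign (-0.236 without pericentromeric DMRs, -7.98 to 10.4 with a replicate left out), as did repeated 31-mers (-0.884 to 5.72). Soft-masked bases stayed higher in members, by 3.01 points without replicate 1 and 13.8 without replicate 2. Unique DMRs were fewer among members in each alternative (-13.6 to -3.94 with a replicate left out). The causes were not tested.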

Other observations

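The same left-out comparison was made for DMRs listed in *nrpe1* and not in *ago4*. With replicate 1 left out, 9 of 101 candidates (8.91%) were in its *ago4* list and 5 (4.95%) in its *nrpe1* list. With replicate 2 left out, 22 of 55 (40.0%) were in *ago4* and 30 (54.5%) in *nrpe1*. With replicate 3 left out, 9 of 113 (7.96%) were in *ago4* and 15 (13.3%) in *nrpe1*. All DMRs of the other 4 lists gave 27.2%, 48.2% and 34.1% in *ago4* and 6.34%, 20.4% and 12.2% in *nrpe1*, so these candidates were below the background in *ago4* for all 3 replicates. In *nrpe1* they were above it for replicates 2 and 3 and below it for replicate 1. That background includes these candidates, and its other DMRs were each in an *ago4* list of the other 2 numbers. DMRs listed in both mutants were found in the left-out *ago4* list in 20.9%, 62.2% and 38.7% of cases and in the left-out *nrpe1* list in 19.8%, 68.9% and 44.1%.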
